A study of Danio rerio with 6 samples.

Results

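Peaks of 2 histone marks lying within 1 Mb of a chromosome end were examined in zebrafish heart tissue. A peak was a member when it started in the first 1 Mb of a chromosome or ended within 1 Mb of the chromosome's end, which was set at the largest peak end found in any of the 6 deposited lists. Chromosome 4 was left out. The 48 ends of the remaining 24 chromosomes held 5514 peaks over the 6 libraries, of which 1861 of 13478 were H3K9me3 peaks and 3653 of 47753 were H3K9ac peaks. Their windows made up 48 Mb, or 3.80% of the span of these chromosomes. The rest of the same chromosomes served for comparison. Position chose the members, and no measured level entered the rule, but called peaks set the place of the high-coordinate ends.

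The tissue was heart of fish aged 1 to 1.5 years, either uncut or taken 6 or 9 days post amputation (dpa) of the tip of the ventricle, an injury after which zebrafish regrow the missing muscle. Each mark and time had 1 library made by chromatin immunoprecipitation and sequencing (ChIP-seq), with an antibody to H3K9me3 or to H3K9ac. No strain, transgene or number of pooled hearts is given in the labels. With 1 library per group no test between times was possible, every difference between times compares libraries and not conditions, and all intervals are 95% intervals for counting error only. Heart tissue holds muscle, endothelium, epicardium, blood and other cells, so a changed share of a cell type and a changed mark within a cell type cannot be told apart.

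Trimethylation of lysine 9 of histone H3 is laid down by SUV39 and SETDB enzymes, is bound by HP1 proteins and marks compact, silent chromatin over repeats, around centromeres and next to telomeres. Acetylation of the same lysine blocks that methylation and is typical of active promoters and enhancers. The stretches just inside telomeres, called subtelomeres, are rich in repeats in many species, can silence genes placed in them, and also hold ordinary genes.

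The libraries differed in depth. The background, the most frequent read density against which peaks had been scored, was 4.1, 10.8 and 9.24 reads per kb in the H3K9me3 libraries of uncut, 6 dpa and 9 dpa hearts, and 14.6, 11.3 and 15.0 reads per kb in the H3K9ac libraries. Of 22 annotated genes of the heart muscle list, 18, 17 and 20 carried an H3K9ac promoter peak at the same times, and 0 carried an H3K9me3 promoter peak. Across the 9005 annotated genes outside the end windows the shares with H3K9ac were 83.2%, 87.3% and 85.8% and those with H3K9me3 1.03%, 3.54% and 0.811%, so these counts do not tell heart muscle genes from other genes and do not check the tissue label.

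Both marks were denser near chromosome ends, and H3K9me3 more so. The end windows held 587 of 3954 H3K9me3 peaks in uncut hearts, 687 of 5387 at 6 dpa and 587 of 4137 at 9 dpa, which is 14.8% (13.8% to 16.0%), 12.8% (11.9% to 13.7%) and 14.2% (13.2% to 15.3%) of the lists. Per Mb, the end windows held 12.2 H3K9me3 peaks against 2.77 in the rest in uncut hearts, 14.3 against 3.87 at 6 dpa, and 12.2 against 2.92 at 9 dpa. The density ratio of ends over rest was thus 4.41 (4.04 to 4.82), 3.70 (3.42 to 4.01) and 4.19 (3.84 to 4.57). For H3K9ac the end windows held 1151 of 15161 peaks in uncut hearts, 1277 of 16485 at 6 dpa and 1225 of 16107 at 9 dpa. Its density ratio was 2.08 (1.959 to 2.21), 2.13 (2.01 to 2.25) and 2.08 (1.97 to 2.21). In each library pair the interval of the H3K9me3 ratio lay above that of the H3K9ac ratio. Annotated genes were also denser near the ends: 650 of 9655 genes had a transcription start site (TSS) in the end windows, a gene density ratio of 1.83. Only genes that a peak of some list was annotated to are counted, so this density is not independent of the peaks.

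The density was graded along the windows. In uncut hearts there were 22.9 H3K9me3 peaks per Mb (18.8 to 27.6) in the outermost 0.1 Mb, then 16.0 from 0.1 to 0.25 Mb, 11.6 from 0.25 to 0.5 Mb and 9.29 from 0.5 to 1 Mb. Beyond the windows it was 8.33 from 1 to 2 Mb, 4.83 from 2 to 5 Mb and 2.22 (2.13 to 2.31) farther in. The outermost bin was therefore 10.3 times as dense as the chromosome interior in uncut hearts, 8.13 times at 6 dpa and 9.42 times at 9 dpa. At high-coordinate ends this bin reaches to a called peak by the rule, while at low-coordinate ends the first peak began as far in as base 58045. The bin pools both sides, and the part of this rule in its density was not tested. H3K9ac had 34.8 peaks per Mb in the outermost bin in uncut hearts and 11.1 beyond 5 Mb, a ratio of 3.14, with ratios of 3.14 at 6 dpa and 2.91 at 9 dpa. At 9 dpa the outermost H3K9ac bin was not the densest. It had 34.2 peaks per Mb (29.1 to 39.8), against 35.6 (31.3 to 40.2) from 0.1 to 0.25 Mb. The limit of 1 Mb cut through this gradient without a step. The 0.1 Mb just inside it held 45, 50 and 38 H3K9me3 peaks at uncut, 6 dpa and 9 dpa, and the 0.1 Mb just outside held 51, 60 and 57. The corresponding H3K9ac counts were 94, 101 and 106 inside and 94, 102 and 105 outside.

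**Figure D1:**
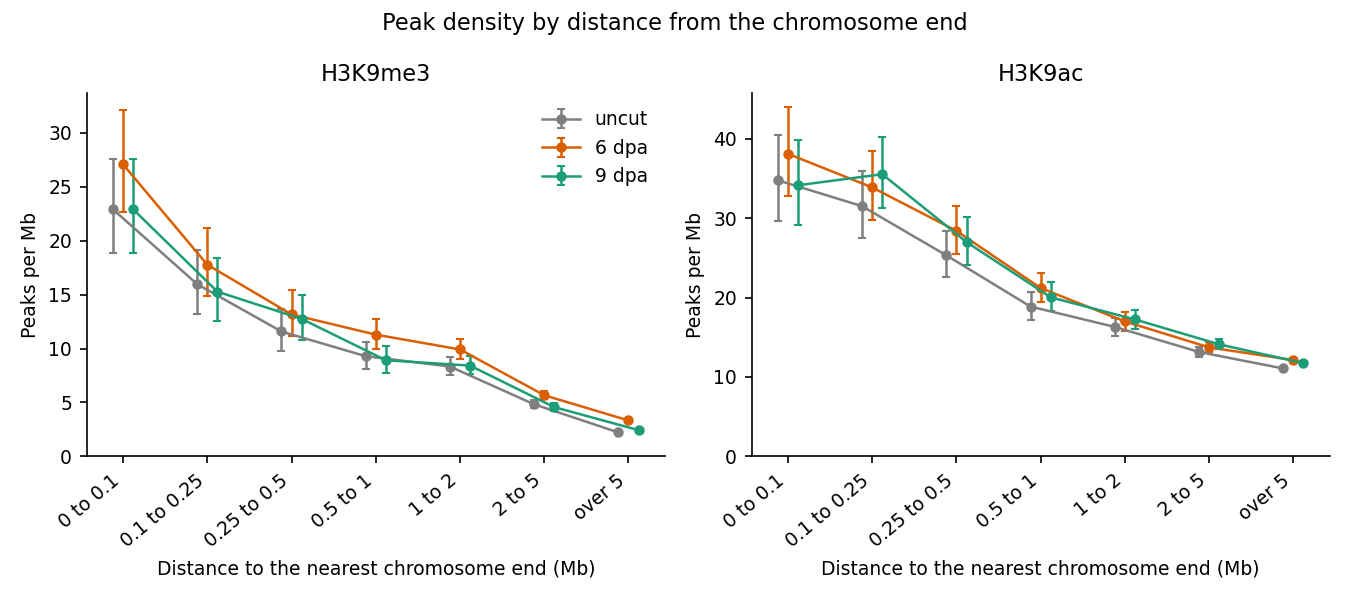
Peaks per Mb (y axis) in bins of distance to the nearest chromosome end in Mb (x axis, bins of unequal width), for H3K9me3 and H3K9ac in uncut, 6 dpa and 9 dpa hearts. Points are 1 library each and bars are 95% Poisson intervals. H3K9me3 in uncut hearts lies at 22.9 peaks per Mb in the outermost bin and at 2.22 beyond 5 Mb, and H3K9ac at 34.8 and 11.1.

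The excess was spread over the chromosomes. Every one of the 48 ends held more H3K9me3 peaks per Mb than the mean of the rest in all 3 libraries. The lowest, median and highest end held 4, 13 and 23 H3K9me3 peaks in uncut hearts, 5, 14 and 25 at 6 dpa, and 4, 13 and 20 at 9 dpa. For H3K9ac, 47, 47 and 46 of the 48 ends exceeded the mean of the rest at uncut, 6 dpa and 9 dpa. The 6 richest ends held 19.6%, 19.7% and 19.3% of the H3K9me3 end peaks. Summed over the libraries, the high-coordinate ends of chromosomes 17 and 2 and the low-coordinate end of chromosome 22 held 60 H3K9me3 peaks each, and the high-coordinate ends of chromosomes 3, 12 and 15 held 58 each. The most H3K9ac peaks were at the high-coordinate end of chromosome 11 with 141, the low-coordinate end of chromosome 15 with 140 and the low-coordinate end of chromosome 22 with 127. Across the 48 ends, Spearman's rho of the counts was 0.75 to 0.86 between the times of H3K9me3 and 0.86 to 0.91 between those of H3K9ac, but 0.08, 0.17 and 0.25 between the marks at uncut, 6 dpa and 9 dpa. Ends of 1 library share its depth, so these values are a description. The high-coordinate ends, whose position rests on the last peak, had an H3K9me3 ratio of 4.99, 4.05 and 4.69. The low-coordinate ends, where the chromosome starts at base 1, had one of 3.84, 3.35 and 3.68. For H3K9ac the ratio was 2.05, 2.10 and 2.09 at high-coordinate ends and 2.11, 2.15 and 2.08 at low-coordinate ends. With low ends set at the first peak, the ratio of all ends was 4.41, 3.72 and 4.21 for H3K9me3 and 2.09, 2.14 and 2.10 for H3K9ac.

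**Figure D2:**
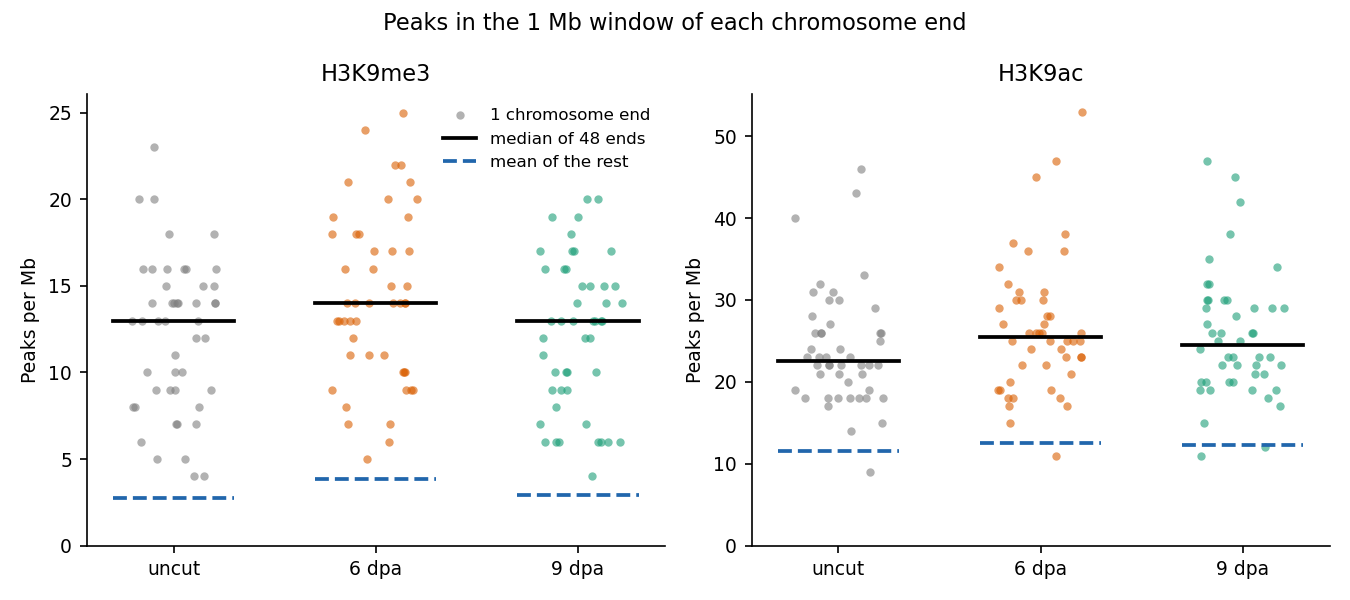
Peaks per Mb (y axis) in each of the 48 end windows (points, spread sideways for legibility) at each time (x axis) for H3K9me3 and H3K9ac, with the median of the ends (solid line) and the mean of the rest of the same chromosomes (dashed line). All 48 points lie above the dashed line for H3K9me3, and 47, 47 and 46 do for H3K9ac at uncut, 6 dpa and 9 dpa.

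Single peaks near the ends were set against the others in tags, width and fold enrichment. The median H3K9me3 peak of the end windows had 25.5, 42.7 and 38.5 tags (reads) per kb at uncut, 6 dpa and 9 dpa, and that of the rest 23.9, 39.6 and 36.5. For H3K9ac the end peaks had a median of 58.9, 54.9 and 62.4 tags per kb, and the others 63.2, 59.7 and 66.5. H3K9ac end peaks were also narrower, with a median width of 1341, 1421 and 1415 bp against 1495, 1502 and 1549 bp in the rest. H3K9me3 end peaks were 977, 931 and 935 bp wide at the median, and those of the rest 913, 893 and 919 bp. Wide H3K9me3 peaks of 3 kb or more were scarcer near the ends, at 1.02%, 1.60% and 1.02% of end peaks against 3.33%, 4.02% and 4.42% of the rest. Wide H3K9ac peaks were scarcer there too, at 1.56%, 2.74% and 2.37% against 3.50%, 3.94% and 4.41%. The local background behind end peaks was 1.61, 1.33 and 1.32 times the library background for H3K9me3, and 1.41, 1.26 and 1.29 times behind peaks of the rest. For H3K9ac it was 1.47, 1.69 and 1.54 times behind end peaks and 1.67, 1.79 and 1.68 times behind the others. A local background over 2 times that of the library stood behind 29.5%, 16.4% and 14.8% of H3K9me3 end peaks. In the rest it was 25.2%, 17.4% and 20.0%, so by this share end peaks were higher in uncut hearts alone. For H3K9ac the shares were 18.5%, 35.7% and 24.3% of end peaks and 28.6%, 39.9% and 30.9% of the rest. The authors' median fold enrichment was 9.25, 7.08 and 7.61 for H3K9me3 end peaks against 9.04, 6.12 and 6.57 in the rest, and 6.72, 7.74 and 6.90 for H3K9ac end peaks against 6.09, 7.40 and 6.38. Among the tenth of H3K9me3 peaks with the highest scores, 22.0%, 25.05% and 21.0% lay in the end windows at uncut, 6 dpa and 9 dpa.

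H3K9me3 sites near the ends recurred between times more often than those elsewhere. Of the H3K9me3 end peaks, 57.8% (53.7% to 61.7%) in uncut hearts, 49.3% (45.6% to 53.1%) at 6 dpa and 57.6% (53.5% to 61.5%) at 9 dpa overlapped an H3K9me3 peak at both other times. In the rest this held for 42.3% (40.6% to 43.9%), 30.3% (29.0% to 31.6%) and 40.3% (38.7% to 41.9%). The shares were also taken within 2 broad classes of score. With scores of 100 or more, 84.9% (80.3% to 88.7%) of end peaks at 6 dpa and 91.6% (87.4% to 94.5%) at 9 dpa recurred, against 71.3% (68.7% to 73.8%) and 78.0% (75.2% to 80.5%) of the rest. In uncut hearts it was 87.8% (82.5% to 91.7%) against 81.6% (78.8% to 84.1%), and these intervals overlapped. With scores under 100, it was 42.6%, 25% and 34.4% at uncut, 6 dpa and 9 dpa against 29.6%, 16.2% and 26.2%, with no overlap of intervals. Scores still vary within each class, and their part in the difference was not tested. When overlapping H3K9me3 peaks of all times were merged into sites, 336 of 979 end sites (34.3%) were present at all 3 times, against 19.3% in the rest and 21.1% of all sites. For H3K9ac the shares lay close together: 82.4%, 74.5% and 77.2% of its end peaks recurred at both other times, and 82.4%, 76.0% and 77.5% of the rest. Of its end sites, 941 of 1506 (62.5%) were present at all times, beside 62.8% of all H3K9ac sites.

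The same stretches often carried both marks. At the same time, 41.1% (37.1% to 45.1%) of H3K9me3 end peaks in uncut hearts, 51.2% (47.5% to 55.0%) at 6 dpa and 52.3% (48.3% to 56.3%) at 9 dpa overlapped an H3K9ac peak. In the rest the shares were 30.9%, 39.4% and 43.0%. Seen from H3K9ac, 20.9%, 27.4% and 25.3% of its end peaks overlapped an H3K9me3 peak, against 7.44%, 12.1% and 10.2% of the rest. Each mark also covered more of the end windows. The ratio of called base pairs, ends over rest, was 4.21, 3.49 and 3.74 for H3K9me3 and 1.87, 2.01 and 1.90 for H3K9ac. The part of this coverage in the higher overlap near the ends was not tested. Of the 336 H3K9me3 end sites present at all times, 181 (53.9%, 48.5% to 59.1%) also had H3K9ac at all times and 59 (17.6%, 13.9% to 22.0%) had it at none. Of 1411 such sites in the rest, 47.1% (44.5% to 49.7%) had H3K9ac at all times and 23.4% (21.3% to 25.7%) at none, so both pairs of intervals overlapped. An overlap in tissue does not show that both marks sit on 1 nucleosome or in 1 cell. Peaks that no peak of the other mark touched at any time were still denser near the ends, with a ratio of 3.38, 2.91 and 3.13 for H3K9me3 alone and 1.70, 1.72 and 1.71 for H3K9ac alone. The peaks shared between marks had ratios of 5.79, 4.41 and 4.98 in the H3K9me3 lists and 4.18, 4.67 and 4.23 in the H3K9ac lists.

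**Figure D3:**
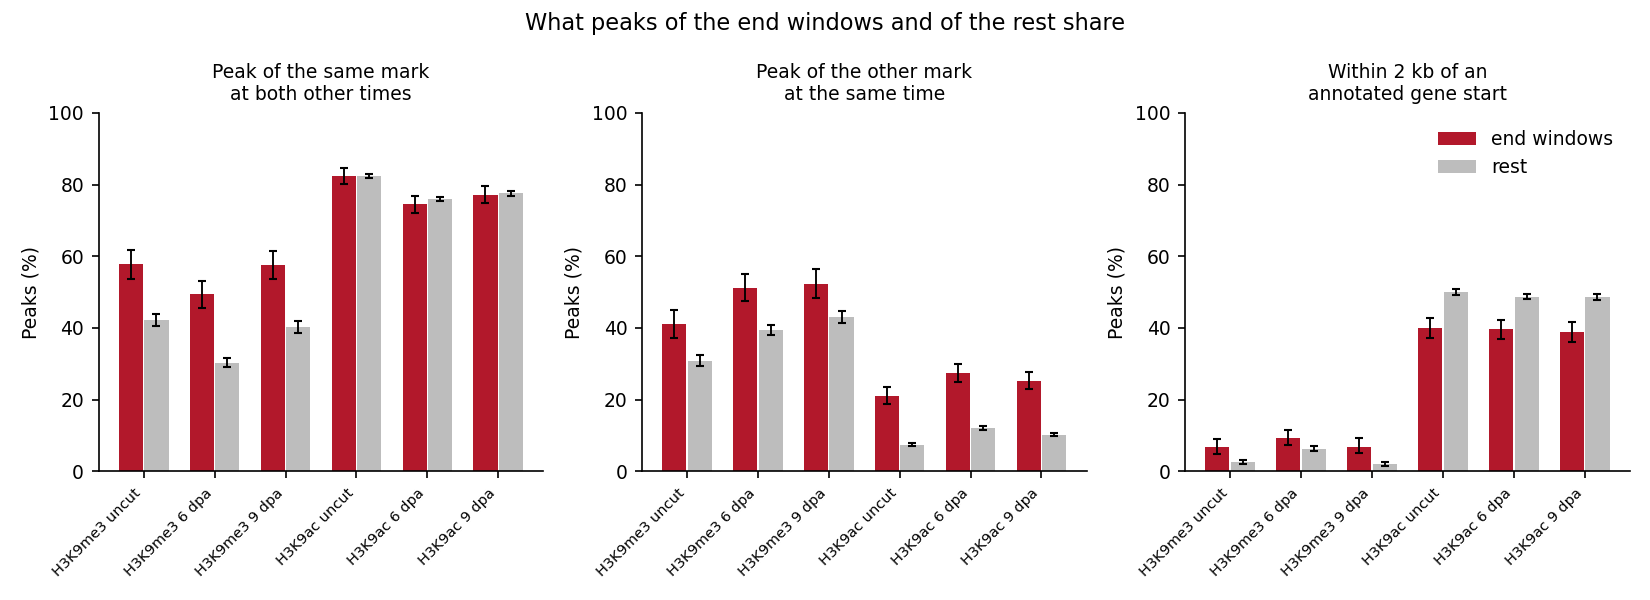
Share of peaks in percent (y axis) of the end windows (left bar of each pair) and of the rest of the same chromosomes (right bar), per library (x axis), that overlap a peak of the same mark at both other times, overlap a peak of the other mark at the same time, or lie within 2 kb of an annotated gene start. Bars on the columns are 95% Wilson intervals. H3K9me3 end peaks recur in 57.8%, 49.3% and 57.6% of cases against 42.3%, 30.3% and 40.3% in the rest, and H3K9ac end peaks lie near a gene start in 39.97%, 39.6% and 38.9% of cases against 50.1%, 48.7% and 48.7%.

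The most heavily covered places near the ends were nearly the same for both marks. The 8 H3K9me3 end sites with the most tags, summed over the times, held 21.0%, 18.7% and 21.1% of all H3K9me3 tags in end peaks at uncut, 6 dpa and 9 dpa, and 6.56%, 5.08% and 5.26% of the H3K9ac tags. At 7 of them lay also one of the 8 H3K9ac end sites with the most tags, and none had an annotated TSS within 2 kb. The first, chr19:455467-459833 (danRer10), had 300.9, 535 and 474 H3K9me3 tags per kb of peak at uncut, 6 dpa and 9 dpa, and 472, 401 and 434 H3K9ac tags per kb. The second, chr20:55333013-55339884, ran to the last peak base of its chromosome and had 148, 312 and 260.4 H3K9me3 and 231, 197 and 241 H3K9ac tags per kb. On chr2:81020-82528 there were 544, 591 and 607 H3K9me3 tags per kb and 486, 786 and 474 H3K9ac tags per kb. The other 5 lay at chr22:39219832-39224015, chr10:14555-16307, chr17:53292145-53294414, chr6:681741-685361 and chr6:60214658-60216429. The eighth H3K9ac site was the promoter of mcl1a and had no H3K9me3 peak. At chr19:455467-459833 the H3K9me3 tags per kb were 73.4, 49.4 and 51.3 times the library background. The authors' fold enrichment of the peak there was 5.55, 5.89 and 5.65, below the medians of 9.12, 6.28 and 6.74 in these lists. At the chromosome 20 site it was 3.71, 3.68 and 3.19 for H3K9me3 and 3.84, 3.55 and 3.32 for H3K9ac. At chr2:81020-82528 it was 21.9, 18.8 and 19.9 for H3K9me3, above the 90th percentile of each list. Of the 8 sites, 5, 6 and 6 had a fold enrichment above the median of the H3K9me3 list at uncut, 6 dpa and 9 dpa, and 6, 5 and 5 above that of the H3K9ac list. Whether these places gather reads from repeats was not tested, since no control library or genome sequence was analysed here.

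**Figure D4:**
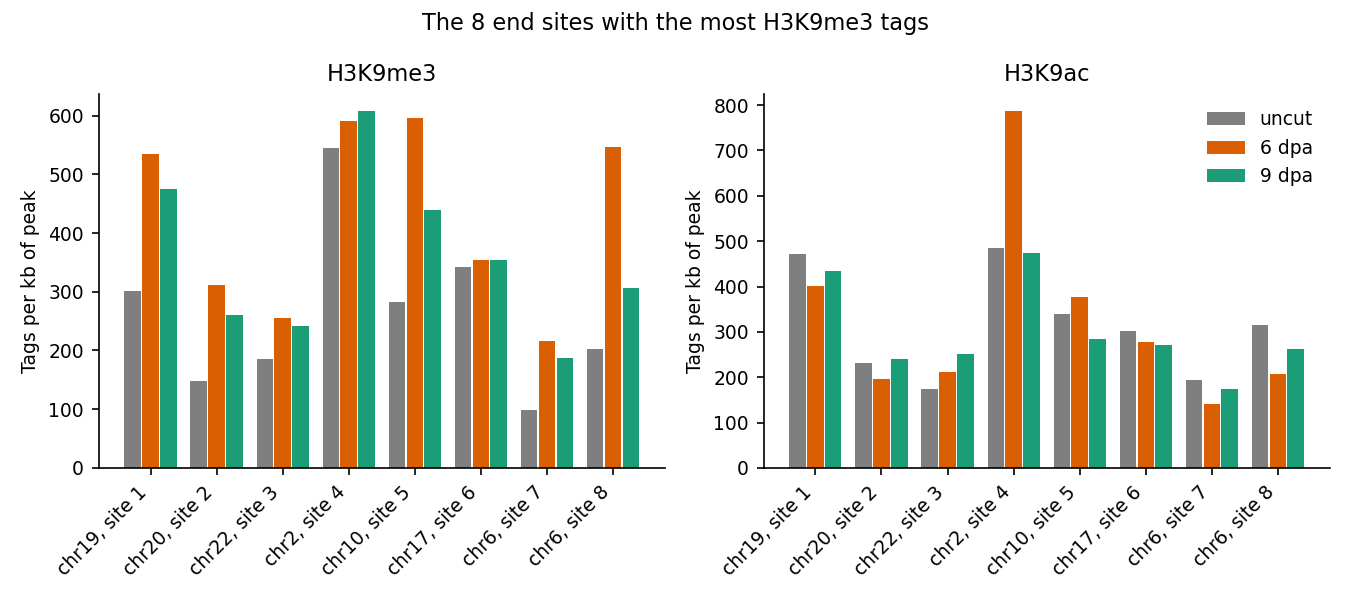
Tags per kb of peak (y axis) at the 8 end sites with the most H3K9me3 tags (x axis, numbered by rank with their chromosome), in the H3K9me3 and H3K9ac libraries of uncut, 6 dpa and 9 dpa hearts. Bars are 1 library each, with no replicate. Both marks are high at every one of the 8 sites, as at site 4 on chromosome 2 with 544, 591 and 607 H3K9me3 and 486, 786 and 474 H3K9ac tags per kb.

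Among genes annotated in the lists, promoters near the ends carried H3K9me3 more often, and H3K9ac less often, than other promoters. Of the 650 end genes, an H3K9me3 peak lay within 2 kb of a TSS at 41 (uncut), 70 (6 dpa) and 42 (9 dpa), or 6.31% (4.68% to 8.45%), 10.8% (8.61% to 13.4%) and 6.46% (4.82% to 8.62%). Among the 9005 genes of the rest the shares were 1.03%, 3.54% and 0.811%. At all 3 times the mark was present at 24 end genes (3.69%) and at 27 genes of the rest (0.2998%). Of all H3K9me3 promoter peaks, 31.5%, 17.8% and 36.7% lay in the end windows. The density ratio of promoter peaks was 11.6 (7.97 to 16.9), 5.50 (4.19 to 7.22) and 14.7 (9.97 to 21.6). This ratio is per Mb and is not adjusted for the gene density ratio of 1.83 in the end windows, unlike the shares of genes above. Promoters were still a small part of the mark: 6.64%, 9.17% and 6.81% of H3K9me3 end peaks were near a TSS, and 69.2%, 67.1% and 67.8% were annotated to no gene. An H3K9ac promoter peak was found at 76.0%, 82.0% and 78.2% of end genes, against 83.2%, 87.3% and 85.8% of genes of the rest. Both marks together stood at 27, 63 and 32 end genes, or 4.15%, 9.69% and 4.92%, against 0.766%, 3.32% and 0.633% of genes of the rest. A gene that none of the lists annotated is not counted here. A gene can thus enter the count through an H3K9me3 peak alone, and H3K9me3 peaks were denser near the ends. Such entries raise the H3K9me3 share and lower the H3K9ac share of end genes, and the size of this effect was not tested.

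**Figure D5:**
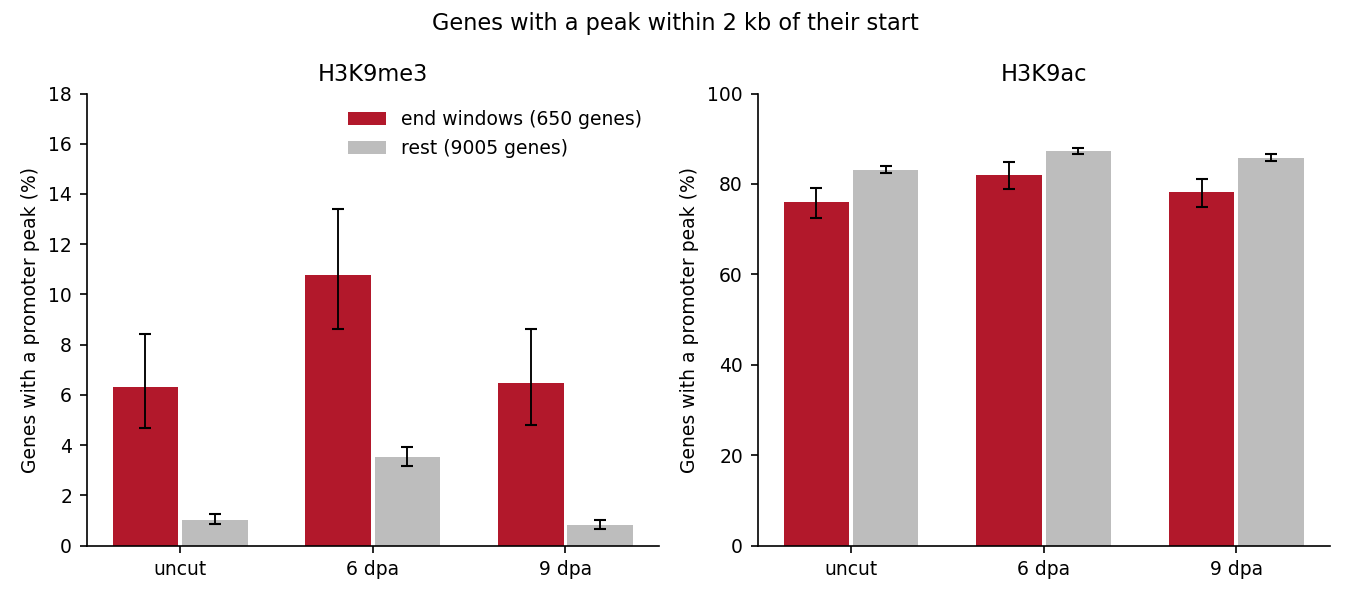
Share of genes in percent (y axis, different scales) with a peak within 2 kb of their start, for 650 genes of the end windows (left bar of each pair) and 9005 genes of the rest (right bar), at each time (x axis). Bars on the columns are 95% Wilson intervals. H3K9me3 stands at 6.31%, 10.8% and 6.46% of end genes against 1.03%, 3.54% and 0.811% of the rest, and H3K9ac at 76.0%, 82.0% and 78.2% against 83.2%, 87.3% and 85.8%.

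Among the 24 end genes with H3K9me3 at every time, the most tags were at ghitm, which codes for a mitochondrial membrane protein. Its H3K9me3 promoter peak had 163, 278 and 203 tags at uncut, 6 dpa and 9 dpa, with an H3K9ac peak of 321, 346 and 307 tags over the same stretch. The TSS of ghitm lies 204 kb from the high-coordinate end of chromosome 12. sox9b, which codes for a SOX transcription factor of cartilage, neural crest and heart valve development, lies 22.2 kb from the end of chromosome 3. Its TSS was covered by an H3K9me3 peak of 139, 105 and 116 tags, and no H3K9ac promoter peak was called at any time. It was the only one of the 12 named genes of this group without H3K9ac. The others were tmem222a with 119, 217 and 147 H3K9me3 tags, zswim6 with 128, 181 and 125, the cardiolipin-remodelling acyltransferase gene lycat and its neighbour zgc:64043 at overlapping peaks, and f10, the gene of coagulation factor X, with 49, 80 and 59. With fewer tags followed tbc1d13, asb2b, rpf2 (a ribosome assembly factor), apobec2a and zgc:162082. At apobec2a H3K9ac was called at 6 dpa with 73 tags and at 9 dpa with 87 tags, and not in uncut hearts.

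The end genes with the most H3K9ac were led by mcl1a, an anti-apoptotic member of the BCL2 family, with 539, 636 and 626 promoter tags at uncut, 6 dpa and 9 dpa, 349 kb from the start of chromosome 19. irf2bp2b, a transcriptional co-repressor gene, had 504, 612 and 651 tags, and the microRNA gene mir7a-3 had 330, 475 and 452. The tags of mir7a-3 are a sum over peaks that touch its window of TSS ± 2 kb. The best-scored of them, chr8:155651-157436 in uncut hearts, ends upstream of the TSS at base 159383. mir7a-3 also carried an H3K9me3 peak of 28, 46 and 43 tags, about 1 kb downstream of its start. mpzl1l had 347, 365 and 369 tags and the sterol regulator gene srebf1 had 329, 340 and 368. At mpzl1l the tags are a sum over peaks. The sum includes a peak of 212, 232 and 225 tags that lies over the TSS of its neighbour psmg1. Next by summed tags were pigp with 298, 371 and 358, zgc:56064 with 391, 325 and 308, and gabpb1, a subunit of the GABP activator of mitochondrial genes, with 257, 355 and 367. The rest of the leading 12 were dscr3, ghitm, zgc:174972 and thap1. Of these genes mpzl1l, pigp, zgc:174972 and thap1 had an H3K9me3 peak at 6 dpa alone, with 42, 39, 84 and 50 tags. Their scores were 52.14, 51.55, 88.57 and 51.09, where the lowest score listed was 50.

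Peaks that were in one list and not in another were counted per gene. An H3K9ac promoter peak was present at 6 dpa and absent in uncut hearts at 48 of 650 end genes, or 7.38% (5.61% to 9.66%), beside 5.96% of all genes, and the reverse held for 9 end genes (1.38%), beside 1.88%. Between 9 dpa and uncut hearts it was 31 end genes (4.77%) beside 4.64% of all genes, and 17 in reverse (2.62%) beside 2.06%. Between 9 dpa and 6 dpa it was 13 end genes (2%) beside 2.69%, and 38 in reverse (5.85%, 4.29% to 7.92%) beside 4.19%. This last interval lay just above the share of all genes. Each of the other H3K9ac intervals included the matching share of all genes. For H3K9me3, 41 end genes (6.31%, 4.68% to 8.45%) had a promoter peak at 6 dpa and none in uncut hearts, beside 3.24% of all genes, and 12 the reverse (1.85%) beside 0.606%. At 9 dpa but not in uncut hearts it was 15 end genes (2.31%) beside 0.646%, and 14 the reverse (2.15%) beside 0.785%. At 9 dpa but not at 6 dpa it was 10 end genes (1.54%) beside 0.447%, and 38 the reverse (5.85%) beside 3.22%. For H3K9me3 the shares of end genes were above those of all genes in both directions of each pair, and so were the shares with a peak at each time. The uncut H3K9me3 library had the lowest background, 4.1 reads per kb against 10.8 at 6 dpa and 9.24 at 9 dpa. An H3K9me3 promoter peak stood at 41, 70 and 42 end genes at uncut, 6 dpa and 9 dpa. The part of depth in the excess at 6 dpa was not tested. Where no peak was listed, the signal may have stayed below the lowest score of 50 or lain outside the window.

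Among end genes with an H3K9ac promoter peak after amputation and none before, sox4b, the gene of an HMG-box transcription factor, had the highest score. It had 163 tags at 6 dpa and 100 tags at 9 dpa, 68.1 kb from the start of chromosome 16, and at 6 dpa also an H3K9me3 peak of 33 tags. ddit4, a stress-induced inhibitor of mTORC1 signalling, had 163 H3K9ac tags at 6 dpa and 137 at 9 dpa. The 163 tags of ddit4 are summed over peaks of 2555 bp, against 1734 bp at 9 dpa. Present at both later times were also rcor3 with 64 and 45 tags, the cilia gene regulator rfx3 with 65 and 57, and lmcd1 with 88 and 81. tek, which codes for the endothelial angiopoietin receptor, had 48 tags at 6 dpa and 58 at 9 dpa. The same held for tmem107, a gene of the ciliary transition zone, with 52 and 72, for acadsb with 27 and 82, and for the neighbours polr2b and noa1, which share 1 peak of 31 and 60 tags. The 82 tags of acadsb are summed over peaks of 2092 bp, against 678 bp at 6 dpa. The best-scored of them does not cover the TSS. plxnd1, a semaphorin receptor of endothelium, had 70 tags at 6 dpa alone, dbi 57 and zgc:154061 42, while adprhl1 had 80 tags at 9 dpa alone. The uncut list alone had H3K9ac at plek (56 tags), a gene of platelets and leukocytes, at the lymphocyte factor tcf7 (57 tags) and at mark1 (26 tags), a microtubule kinase gene. At mark1 the H3K9me3 list of 9 dpa held a promoter peak of 22 tags.

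Among end genes with H3K9me3 after amputation alone, the proteasome subunit gene psmd3 had 75 H3K9me3 tags at 6 dpa and 68 at 9 dpa, fam210b had 64 and 37, zgc:162255 had 44 and 45, zgc:171298 had 91 and 43, and zgc:162858 had 25 and 33. tbl3 and cfap36 had it at 6 dpa alone, with 42 and 52 tags, and caskb at 9 dpa alone, with 23. All of them but caskb carried H3K9ac at every time. The 91 tags of zgc:171298 at 6 dpa are summed over peaks of 2000 bp, against 1318 bp at 9 dpa. In uncut hearts alone H3K9me3 was found at rnf170 with 34 tags, the potassium channel gene kcnk2b with 18, the steroid enzyme gene cyp17a2 with 20, prr16 with 16 and tpst2 with 16. kcnk2b, cyp17a2, prr16, zgc:153039 and zgc:195050 had no H3K9ac promoter peak at any time.

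In 471 end genes H3K9ac was called at the promoter in all 3 libraries, and their tags were set against the median of the other genes of the same chromosomes. At 6 dpa, 119 end genes (25.3%, 21.6% to 29.4%) were higher than in uncut hearts by over 2 counting standard errors, against 12.9% of the rest and 13.7% of all such genes. Lower were 36 (7.64%, 5.57% to 10.4%), against 14.6% of the rest and 14.2% of all. At 9 dpa, 57 (12.1%) were higher than in uncut hearts beside 9.42% of all, and 35 (7.43%) were lower beside 8.80%. Genes with a shared promoter share a peak: the 119 genes stand on 103 peaks. The 457 with a symbol had a median log2 difference of 0.11 at 6 dpa, and 289 of them were above 0. Per kb of peak that median was 0.03. The following genes are among those with the largest differences and were chosen after their values were seen. The neighbours spra and exosc2 shared a peak of 108 tags at 6 dpa against 41 in uncut hearts, a log2 difference of 1.28 ± 0.26 (counting standard error) and 0.08 per kb. map2k4b, a kinase of the JNK pathway, had 327 tags at 6 dpa against 128 in uncut hearts, a log2 difference of 1.24 ± 0.15, and 162 at 9 dpa. Its peak was 3305 bp wide at 6 dpa and 1570 bp in uncut hearts, and per kb the difference was 0.20. The neighbours serpinb1l3 and rmdn1 shared a peak of 256 tags at 6 dpa against 112 in uncut hearts (1.08 ± 0.16, and -0.05 per kb). On the other side crygn2, a lens crystallin gene by its name, had 24 tags at 6 dpa against 50 in uncut hearts (-1.17 ± 0.36, and -0.65 per kb), and sept10 had 102 tags at 6 dpa and 112 at 9 dpa against 166 in uncut hearts, with -0.82 ± 0.18 and -0.79 ± 0.18. igfbp7, a secreted binding protein of the insulin-like growth factor family, had 59 tags at 6 dpa and 65 at 9 dpa against 96 in uncut hearts, with -0.82 ± 0.24 and -0.78 ± 0.23. Per kb the differences at 6 dpa were -0.21 for sept10 and -0.43 for igfbp7.

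Over merged end sites present at all times, the median log2 change of tags relative to the rest was small. It was 0.01, -0.06 and -0.10 for the 336 H3K9me3 sites at 6 dpa over uncut, 9 dpa over uncut and 9 dpa over 6 dpa, and 0.05, 0.00 and -0.07 for the 941 H3K9ac sites. Scaled to the library background in place of the rest, the H3K9me3 values were -0.56, -0.62 and -0.08 and the H3K9ac values 0.53, 0.18 and -0.37. These scaled values are of end sites alone and do not compare them with the rest. Before any scaling, the H3K9me3 medians were 0.84, 0.56 and -0.31 at end sites and 0.83, 0.62 and -0.21 in the rest. The unscaled H3K9ac medians were 0.15, 0.21 and 0.04 at end sites and 0.10, 0.21 and 0.11 in the rest. Scaling to the background shifts end sites and the rest alike, so it leaves the difference between them unchanged.

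Gene groups near the ends were small. Of 24 annotated genes of telomere maintenance, 3 lay in the end windows, or 12.5% (4.34% to 31.0%), beside 6.66% of all genes with a symbol. For the heterochromatin and heart muscle lists below, the shares were 2.78% (0.492% to 14.2%) and 4.55% (0.807% to 21.8%). Each of these intervals included the share of all genes. ctc1, a subunit of the CST complex that protects telomeres, had H3K9ac tags of 86, 109 and 117 at uncut, 6 dpa and 9 dpa and an H3K9me3 peak of 31 tags at 9 dpa. parn, a deadenylase that matures the telomerase RNA, had 156, 149 and 156 H3K9ac tags. tert, the catalytic subunit of telomerase, had no promoter peak of either mark in any library. Of 36 genes of H3K9 methylation and heterochromatin, only the histone gene h3f3b.1 was an end gene, with 188, 179 and 223 H3K9ac tags and an H3K9me3 peak of 36 tags at 6 dpa. Of the 22 heart muscle genes it was smyd1b, a methyltransferase needed for sarcomere assembly, with H3K9ac of 27 tags at 6 dpa and 38 at 9 dpa and none in uncut hearts. Of 23 cell cycle genes 4 were end genes, or 17.4% (6.98% to 37.1%), an interval just above 6.66%. This list was added after its values were seen. The replicative helicase gene mcm7 had 96, 141 and 104 H3K9ac tags and cdk4 had 66, 71 and 65, the mitotic kinase gene aurka had 65 in uncut hearts and 60 at 6 dpa, and aurkb had no peak. None of these 4 carried H3K9me3.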

How the data were processed

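The authors deposited 1 peak list for each of the 6 libraries, each called separately. Bowtie2 2.2.5, MACS 1.4.2, DiffBind 1.16.3 and the build danRer10 are named per the submitters' processing notes; their roles, settings and any control library are not given in the sources used here. Each peak comes with a tag count, per the file headers, which is not normalized, a score of 10 times the negative log10 of its p, and a fold enrichment, a ratio to the background of the caller. Width is the deposited peak length. The total reads are not given in the sources used here, so depth was read from each peak's score and tag count by the Poisson distribution, and the most frequent density was taken as the library background. Overlap was at least 1 bp, a promoter was a TSS ± 2 kb as annotated in the lists, and shares have 95% Wilson intervals. Where several peaks of a list touched a promoter, their tags and widths were summed, so a neighbour's peak can be included. Repeated lines of a peak were reduced to 1. Peaks of a mark that overlapped between times were merged into sites, and log2 tag changes at sites or promoters are relative to the median of the rest. Python 3.11.15, pandas 2.3.3, numpy 2.4.6, scipy 1.17.1 and matplotlib 3.10.9 were used, and the code was tested on simulated data.

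The members, gene lists and comparisons were chosen with earlier results of these data known. Named genes were those with the most tags or highest scores in each class of promoter peaks (up to 12 or 8 per class), the 8 sites per mark with the most tags, and all end genes of the lists of telomere, heterochromatin and heart muscle genes; cell cycle genes and the largest tag differences were added after their values were seen. Alternatives were other windows, low ends set at the first peak, score limits, equal list lengths, other overlap and promoter limits, other scalings, and each chromosome left out. No sequence is shown because no genome of this build was used here. One end gene is not reported here.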

Additional observations from a re-analysis of the deposited data

Results flagged for a closer look

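The density ratio of the end windows differed from that of uncut hearts by -0.71 at 6 dpa and by -0.23 at 9 dpa for H3K9me3, and by 0.046 at 6 dpa and 0.0040 at 9 dpa for H3K9ac. The values of both marks differ in sign, which was not tested. Both later H3K9ac ratios lie within the counting interval of the uncut ratio (1.959 to 2.21). The H3K9me3 ratio at 9 dpa, 4.19, also lies within its uncut interval (4.04 to 4.82), and that at 6 dpa, 3.70, lies below it. With lists of equal length the H3K9me3 ratio at 6 dpa was 4.24, within that interval. The signs depended on the limits: with scores of at least 100 the H3K9me3 ratio was 6.24 at 9 dpa against 6.08 in uncut hearts, and the H3K9ac ratio 1.98 at 6 dpa and 2.01 at 9 dpa against 2.08. With 2 Mb windows the H3K9ac ratio was 1.7686 at 6 dpa and 1.7765 at 9 dpa against 1.7782, and with lists of equal length it was 2.0569 at 9 dpa against 2.0804. The end windows of chromosome 4, which the comparisons leave out, also held peaks: H3K9me3 had 26 (uncut), 33 (6 dpa) and 28 (9 dpa), and H3K9ac had 57, 61 and 57.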

How the results depend on the processing

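All density ratios stayed above 1 under every alternative run, between 2.91 and 6.24 for H3K9me3 and between 1.70 and 2.52 for H3K9ac, and leaving out any 1 chromosome kept each within its interval. Values in groups of 3 are in the order uncut, 6 dpa, 9 dpa. With 0.5 Mb windows the ratio was 5.24, 4.32 and 5.12 for H3K9me3 and 2.49, 2.52 and 2.501 for H3K9ac. With 2 Mb windows it was 3.35 at 6 dpa and 3.83 at 9 dpa for H3K9me3, and 1.78, 1.77 and 1.78 for H3K9ac. Scores of at least 100 gave 6.08, 5.87 and 6.24 for H3K9me3 and 1.98 for H3K9ac at 6 dpa. Lists of equal length gave 4.24 for H3K9me3 at 6 dpa, and chromosome 4 included gave 3.38 at 6 dpa and 3.82 at 9 dpa. Called base pairs gave 3.74 for H3K9me3 at 9 dpa, and 1.87, 2.01 and 1.90 for H3K9ac. Peaks without the other mark, an alternative chosen after seeing the data, gave 3.38, 2.91 and 3.13 for H3K9me3 and 1.70, 1.72 and 1.71 for H3K9ac.

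The ratio of median tags per kb, ends over rest, was 1.07 for H3K9me3 in uncut hearts, 1.14 with 0.5 Mb windows, and reversed to 0.985 with scores of at least 100; at 9 dpa it reversed to 0.981. For H3K9ac it was 0.958 in uncut hearts and 0.954 at 6 dpa with such scores. The ratio of median H3K9me3 widths at 6 dpa was 1.04 and reversed to 0.886 with scores of at least 100, and at 9 dpa it was 1.02 and became 0.866 with such scores, 0.997 with 0.5 Mb and 0.995 with 2 Mb windows. The ratio of median H3K9me3 fold enrichment was 1.157 at 6 dpa and 1.158 at 9 dpa, and 1.29 and 1.28 with scores of at least 100. The cause of these reversals was not tested.

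Recurrence at both other times was 87.8%, 84.9% and 91.6% for H3K9me3 and 95.9%, 94.9% and 95.1% for H3K9ac with scores of at least 100, and 61.8% and 54.1% for H3K9me3 at uncut and 6 dpa with 0.5 Mb windows. Overlap with the other mark was 55.5% for H3K9me3 at 6 dpa and 27.8% for H3K9ac at 9 dpa with 0.5 Mb windows, and 24.7% for H3K9ac at 6 dpa with at least 0.5 of the peak covered. Shares near a TSS were 3.07%, 6.55% and 3.75% for H3K9me3 within 1 kb, 14.0%, 16.4% and 14.5% within 5 kb, and 7.17% at 6 dpa with scores of at least 100; for H3K9ac they were 43.8%, 43.1% and 42.9% within 5 kb and 47.7%, 48.1% and 46.8% with such scores.

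The present and absent genes depended most on the limits. Requiring a score of at least 100 where present left 3, 1 and 4 H3K9me3 end genes for 6 dpa not uncut, 9 dpa not uncut and 6 dpa not 9 dpa, and 1, 1 and 0 in reverse. For H3K9ac it left 8, 4 and 5, and 0, 0 and 2 in reverse. Within 5 kb the H3K9me3 counts were 67, 32 and 59, and 28, 31 and 21 in reverse, and the H3K9ac count for uncut not 6 dpa was 14. Within 1 kb the H3K9me3 reverse counts were 5, 6 and 6. Lists of equal length gave 27 for H3K9me3 at 6 dpa not uncut and 16 for H3K9ac in uncut not 6 dpa.

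The median log2 change at H3K9me3 end sites scaled to the background was -0.56 at 6 dpa and -0.62 at 9 dpa over uncut, and per kb it was 0.0046 for 9 dpa over uncut and -0.046 for 9 dpa over 6 dpa. For H3K9ac it was 0.53, 0.18 and -0.37 (9 dpa over 6 dpa) scaled to the background, -0.0145 at 6 dpa over uncut and -0.0092 for 9 dpa over 6 dpa per kb, and -0.10 for that pair with 0.5 Mb windows. Values scaled to the background are of end sites alone and are not relative to the rest. No paired analysis was possible because each mark and time has 1 library. The uncut H3K9me3 library had the lowest background, 4.1 reads per kb; the part of depth was not tested, and read totals are not given in the sources used here.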

Other observations

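Neighbouring peaks lay closer together near the ends, where peaks were denser, so this restates the density and is not a separate result. The median distance between neighbouring H3K9me3 peaks was 24.8, 20.9 and 26.5 kb in the end windows at uncut, 6 dpa and 9 dpa, against 83.4, 61.7 and 69.0 kb in the rest. For H3K9ac it was 13.3, 11.4 and 12.03 kb against 19.6, 16.7 and 18.5 kb. Genes named only by a clone or a sequencing project (symbols with zgc, si or LOC) made up 102 of the 625 end genes with a symbol. Of all 1180 such genes, 8.64% (7.17% to 10.4%) lay near an end, beside 6.66% of all genes with a symbol.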
